A study of Homo sapiens with 12 samples.

Results

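PC3 is an established human cell line grown from a bone metastasis of a prostate cancer. Cells treated with silver nanoparticles and DOC together (COM, 3 libraries) were set against cells given 1 of the 2 agents, either silver nanoparticles (AgNPs, 3 libraries) or DOC (3 libraries). The comparison therefore used 9 of the 12 RNA-seq libraries, and the members of each group were taken from the treatment label. The 3 remaining libraries, from cells given phosphate-buffered saline (BLANK), are quoted as background and shared in the estimate of the spread. All 12 libraries came from the same cell line with the genotype labelled WT. The labels abbreviate DOC, and the sources used here give no dose, no exposure time and no particle size. They do not say whether the 3 libraries of a group came from separate cultures, so p-values measure only the spread between these libraries.

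COM differed from the mean of AgNPs and DOC, with each single treatment weighted equally. This mean was taken on the log2 scale, so where AgNPs and DOC differ widely it lies well below their mean CPM. A difference from that mean can arise because COM lay beyond both single treatments, or because it resembled 1 of them. Both readings are therefore given for the leading genes and for most lists. A gene was counted beyond both by test when COM differed from AgNPs and from DOC in the same direction. It was counted beyond both by library when all 3 COM libraries were above, or all 3 below, all 6 AgNPs and DOC libraries.

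Silver ions bind thiols and displace zinc, and cells exposed to them typically induce metallothioneins and the antioxidant genes controlled by the transcription factor NRF2. Stress that slows translation initiation raises the factor ATF4, which drives genes of amino acid supply and, through ATF3 and CHOP, genes linked to cell death. PC3 cells lack functional p53, so genes usually named as p53 targets are read here only by their levels. Cells that leave S phase stop making replication-dependent histone transcripts, and slower growth commonly goes with less ribosome assembly.

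The COM libraries held 10996446 to 11069928 counts on linear transcripts, the AgNPs libraries 13049868 to 13362290, the DOC libraries 18603100 to 19421873 and the BLANK libraries 22573481 to 22769479. Depth thus followed treatment, and thinning all libraries to equal totals is among the alternatives tried. Circular transcripts took 12.5% to 13.5% of counts in COM, 12.9% to 13.2% in AgNPs, 12.4% to 15.8% in DOC and 12.2% to 13.7% in BLANK. DOC replicate 1 was the library at 15.8%. It also stood further from its partners than they from each other, with a chi-square per degree of freedom of 4.48 and 4.81 against 1.71. BLANK replicate 1 stood apart likewise, at 3.75 and 3.50 against 1.84. The epithelial and prostate markers KRT8, KRT18 and HOXB13 were well detected, at 176 to 197, 206 to 216 and 196 to 212 CPM (counts scaled to a common library total) in COM. Luminal prostate markers were scarce or absent in COM, with KLK4 at 0 CPM and ACP3 at 1.09 to 2.08 CPM, here without TMM scaling. Markers of other cell types were mixed. PTPRC, DCN and LUM had no more than 0.0909 CPM, also without TMM scaling, in any COM library. Others were detected in COM, with CD68 at 46.8 to 54.4 CPM, COL1A2 at 50.3 to 55.6, COL1A1 at 16.8 to 21.8, PDGFRA at 13.6 to 15.0, ENO2 at 40.0 to 44.2 and SYT1 at 30.5 to 32.9.

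Of 19986 genes tested, 3169 (15.9%) were higher and 3311 (16.6%) lower in COM than in the mean of the single treatments, at an adjusted p below 0.05 in edgeR's quasi-likelihood test. At least 2-fold differences from this mean, taken on the log2 scale, were found for 315 genes higher and 32 lower. Of the 315, 143 were protein coding with at least 50% of counts on RefSeq rows, and of the 32, 11 were. Of all 19986 genes tested, 12400 met this description. The median log2 fold change over all genes tested was 0.01. With AgNPs and DOC treated as 1 group of 6, so that the difference between them entered the spread, 1899 genes were higher, 167 of them at least 2-fold. Without DOC replicate 1 the counts were 3228 higher and 3365 lower than the mean, and 1405 higher and 1763 lower than both. Without BLANK replicate 1 they were 3221 and 3311 against the mean, and 1383 and 1759 beyond both.

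Fewer genes lay beyond both single treatments. By test, COM was higher than both for 1344 genes (6.72%) and lower than both for 1746 (8.74%). By library, 2218 genes (11.1%) were above and 2533 (12.7%) below, and 1287 and 1685 genes met both criteria. Most of these steps were small, since 199 of the 1287 and 48 of the 1685 differed at least 1.5-fold from each single treatment. Among the 3169 genes higher than the mean, 1988 (62.7%) were above both by library, and for 108 the COM mean lay between the AgNPs and DOC means. Among the 3311 lower genes, 2315 (69.9%) were below both by library and 68 lay between. COM stood nearer to AgNPs than to DOC in counts of genes. It was higher than AgNPs for 1973 genes (9.87%) and lower for 2396 (12%), and higher than DOC for 3615 (18.1%) and lower for 3702 (18.5%). These contrasts share the COM libraries. DOC libraries were also deeper than AgNPs libraries. With all libraries thinned to equal depth, 2799 genes were higher and 3505 lower than the mean, and 1149 were higher and 1884 lower than both. Counts against AgNPs alone and DOC alone were not taken at equal depth, so the part of depth in the nearness to AgNPs was not tested.

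**Figure D1:**
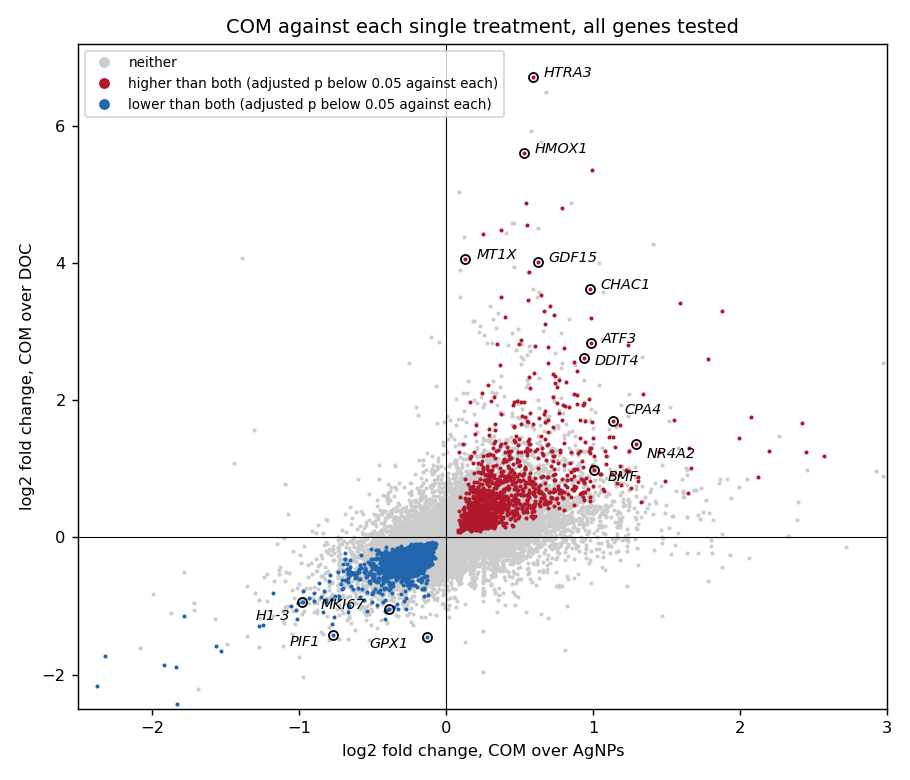
Log2 fold change of COM over AgNPs (horizontal axis) and of COM over DOC (vertical axis) for the genes tested, each point 1 gene, with 19 genes outside the axes. Red points are the 1344 genes higher than both single treatments, blue points the 1746 lower than both; circled genes are described in the text, with HTRA3 and HMOX1 far up the DOC axis and NR4A2 and BMF at similar distances from both.

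The 10 genes furthest above both single treatments, ranked by the smaller of the 2 log2 fold changes, were NR4A2, SDAD1P1, CPA4, BMF, ATF3, CHAC1, L1CAM, ZFP36, FOSB and DDIT4. They were chosen among genes above both by test and by library, so all 10 stood above AgNPs and DOC by selection.

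CHAC1 (chromosome 15, from 40953471), an ATF4 target that degrades glutathione, had 63.2, 59.1 and 54.2 CPM in COM, against 30.7, 31.7 and 27.1 in AgNPs, 4.85, 4.68 and 4.81 in DOC and 2.44 to 3.74 in BLANK. No COM library overlapped any other group. The log2 fold change was 2.30 ± 0.07 (SE) over the mean of both (edgeR adjusted p = 1.57e-24), 0.98 over AgNPs and 3.62 over DOC. ATF3, a stress-induced factor downstream of ATF4, had 108, 115 and 112 CPM in COM, against 59.2, 56.7 and 53.5 in AgNPs and 15.7, 15.9 and 15.2 in DOC. BLANK libraries held 6.92 to 7.36 CPM. The order COM, AgNPs, DOC, BLANK held without overlap for ATF3, with a log2 fold change of 0.98 over AgNPs and 2.84 over DOC. DDIT4, an inhibitor of the growth kinase complex mTORC1, kept the same order. It had 185, 182 and 184 CPM in COM, against 93.0, 94.6 and 100.4 in AgNPs and 29.4, 29.6 and 30.4 in DOC, a log2 fold change of 0.94 over AgNPs and 2.62 over DOC.

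The promoters of CHAC1 and ATF3 are shown because both hold the 8-base core TGATGNAA, searched on both strands as the core of the C/EBP-ATF element that ATF4 binds. Of the 10 genes, 8 had a promoter in RefSeq (GRCh38.p14), and 2 of these 8 held the core in the window of 250 bases before to 50 bases after the start. Among all 27305 promoters 3.67% did. Each sequence below gives the 250 bases before the start, 5′ to 3′, with the core in capitals. In CHAC1 (chr15:40953221-40953470, plus strand) the core lies on the opposite strand, and in ATF3 (chr1:212565157-212565406, plus strand) on the strand shown.
CHAC1: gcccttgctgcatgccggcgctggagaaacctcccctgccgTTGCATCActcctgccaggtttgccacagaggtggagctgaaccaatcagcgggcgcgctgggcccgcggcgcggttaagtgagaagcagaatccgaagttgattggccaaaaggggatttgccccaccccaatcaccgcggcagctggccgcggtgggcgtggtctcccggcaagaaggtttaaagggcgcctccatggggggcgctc
ATF3: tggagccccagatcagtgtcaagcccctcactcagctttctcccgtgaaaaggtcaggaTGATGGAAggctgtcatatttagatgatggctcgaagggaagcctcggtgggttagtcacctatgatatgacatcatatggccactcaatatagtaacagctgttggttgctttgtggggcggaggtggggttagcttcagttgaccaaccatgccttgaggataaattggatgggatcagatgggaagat
A match describes the letters in the window and says nothing of binding in these cells.

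BMF, a BH3-only protein that binds and neutralises survival members of the BCL2 family, differed from each agent by almost the same amount. It had 7.5, 9.62 and 9.40 CPM in COM, against 4.21, 4.87 and 4.14 in AgNPs, 4.42, 4.37 and 4.55 in DOC and 1.31 to 1.996 in BLANK. The log2 fold change was 1.0 over AgNPs (edgeR adjusted p = 4.78e-06) and 0.99 over DOC (adjusted p = 4.43e-07). AgNPs and DOC overlapped each other and COM lay above both. NR4A2, an orphan nuclear receptor induced as an immediate early gene, had 5.87, 4.36 and 3.56 CPM in COM, against 2.48, 1.67 and 1.46 in AgNPs and 1.33, 1.70 and 2.30 in DOC. The COM libraries of NR4A2 spread widely, and by selection the lowest exceeded every AgNPs and DOC library. Its log2 fold change was 1.29 over AgNPs and 1.36 over DOC.

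ZFP36, which binds AU-rich elements and speeds decay of cytokine transcripts, had 32.9, 31.9 and 30.0 CPM in COM, against 17.8, 15.9 and 14.5 in AgNPs and 6.44, 7.97 and 9.01 in DOC. FOSB, a subunit of the AP-1 transcription factor, had 7.5, 7.89 and 7.39 CPM in COM, against 3.30, 3.88 and 4.44 in AgNPs and 2.77, 2.98 and 3.74 in DOC. Both genes showed COM clear of AgNPs by a log2 fold change of 0.97. CPA4, a carboxypeptidase, had 5.51, 6.53 and 7.03 CPM in COM, against 2.48, 3.20 and 2.99 in AgNPs and 1.33, 2.11 and 2.41 in DOC. L1CAM, a cell adhesion molecule, had 5.33, 5.54 and 4.38 CPM in COM, against 2.70, 3.20 and 1.84 in AgNPs and 2.18, 1.801 and 2.15 in DOC. For both, the COM libraries stood above the AgNPs and DOC libraries. SDAD1P1, a pseudogene on chromosome 8 whose reads may be shared with its parent gene, had 4.34, 4.17 and 5.29 CPM in COM, against 1.35, 2.21 and 2.53 in AgNPs and 1.49, 1.29 and 1.64 in DOC.

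**Figure D2:**
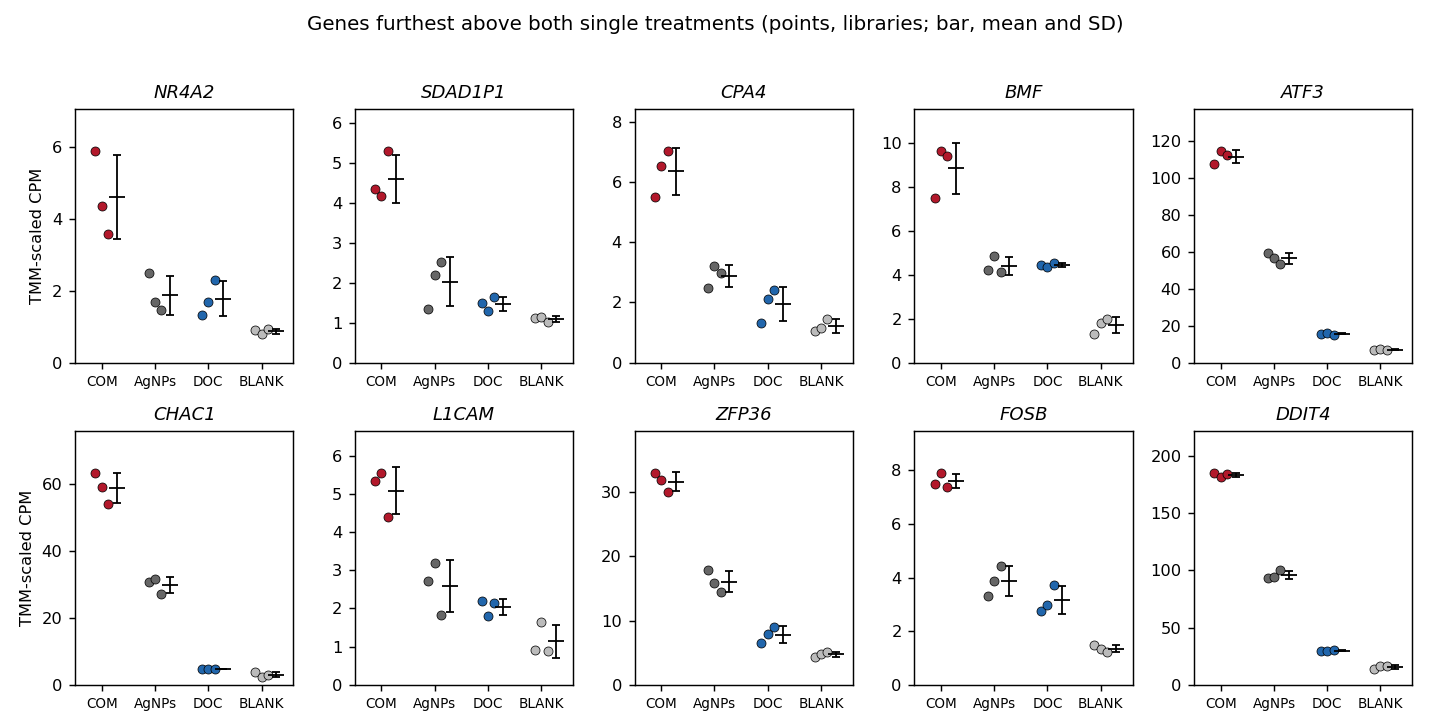
TMM-scaled CPM of the 10 genes furthest above both single treatments, in COM, AgNPs, DOC and BLANK. Points are libraries and bars the mean with SD (n = 3 each); the 3 COM points of ATF3 sit at 108 to 115 CPM, above every AgNPs and DOC point.

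Genes of the ATF4 stress response rose almost as a block. Of 27 tested, 25 were higher than the mean of both, against 15.9% of all genes, and 0 lower. By test 19 were higher than each single treatment, against 6.72% of all genes. By library 20 lay above both and 1 below both. The median log2 fold change was 0.95 over the mean, 0.24 over AgNPs and 1.57 over DOC. The secreted stress factor GDF15 had 412, 402 and 400 CPM in COM, against 271, 258 and 258 in AgNPs and 23.1, 25.8 and 25.6 in DOC. Its groups did not overlap, with a log2 fold change of 0.62 over AgNPs and 4.02 over DOC. DDIT3, which encodes CHOP, had 28.5, 28.5 and 31.8 CPM in COM, against 21.2, 21.8 and 20.5 in AgNPs and 8.15, 7.05 and 7.21 in DOC. COM again lay above both, with a log2 fold change of 0.48 over AgNPs and 1.99 over DOC. The amino acid enzymes PHGDH, PSAT1 and SHMT2 were higher than the mean, at log2 fold changes of 0.38, 0.37 and 0.18, without being beyond both. When AgNPs and DOC formed 1 group, 5 of the 27 genes were higher.

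Antioxidant genes controlled by NRF2 were higher than the mean for 26 of 28 tested, against 15.9% of all genes, and 0 were lower. Higher than each single treatment were 14, against 6.72% of all genes. The median log2 fold change was 0.68 over the mean, 0.10 over AgNPs and 1.19 over DOC. HMOX1, which breaks down heme, had 836, 876 and 857 CPM in COM, against 610, 582 and 590 in AgNPs, 17.2, 17.3 and 18.2 in DOC and 14.1 to 15.4 in BLANK. COM and AgNPs were both far above DOC, and COM exceeded AgNPs by a log2 fold change of 0.53 (edgeR adjusted p = 3.38e-16). The cystine transporter gene SLC7A11 averaged 542 CPM in COM, 483 in AgNPs and 137 in DOC, and the thioredoxin reductase gene TXNRD1 averaged 1501 in COM, 1383 in AgNPs and 582 in DOC. Their steps over AgNPs were small, at log2 fold changes of 0.17 and 0.12. In the fit with AgNPs and DOC as 1 group, 1 of the 28 genes was higher, and the adjusted p of HMOX1 was 0.404. The count beyond both was 10 to 15 across the alternatives.

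Of 4 metallothionein and zinc export genes tested, 3 were higher than the mean, against 15.9% of all genes, mostly through the distance from DOC. With the 2 agents as 1 group 0 were. MT2A, a zinc- and silver-binding protein gene, had 1340, 1446 and 1462 CPM in COM, against 1373, 1333 and 1277 in AgNPs and 90.9, 99.2 and 95.1 in DOC. COM and AgNPs overlapped, and the log2 fold change over AgNPs was 0.09 (edgeR adjusted p = 0.322) against 3.90 over DOC. MT1X rose over both, by a log2 fold change of 0.13 over AgNPs and 4.06 over DOC. The list had 2 genes above both, but 1 without COM replicate 2, COM replicate 3, AgNPs replicate 2 or AgNPs replicate 3. The zinc exporter gene SLC30A1 rose over both as well, with a log2 fold change of 0.94 over the mean. Metallothioneins are close paralogs, so the division of reads between MT1X and MT2A is uncertain.

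The largest differences from the mean were of the same kind, high in COM and AgNPs and low in DOC. HTRA3, a secreted serine protease gene, had 42.2, 42.7 and 43.1 CPM in COM, against 27.6, 28.1 and 29.2 in AgNPs, 0.533, 0.412 and 0.256 in DOC and 0.18 to 0.399 in BLANK. Its log2 fold change of 3.65 over the mean, taken on the log2 scale, combined 0.59 over AgNPs with 6.72 over DOC. FGF21, INHBE, AKR1B10 and the pseudogene NMRAL2P had log2 fold changes of 2.80, 2.43, 2.34 and 2.71 over the mean, and of 0.79, 0.38, 0.25 and 0.55 over AgNPs. FGF21 and INHBE encode secreted factors of the ATF4 response, and AKR1B10 an aldo-keto reductase. S100P, a calcium-binding protein gene, had 14.5, 11.9 and 13.4 CPM in COM, against 8.64, 8.90 and 9.58 in AgNPs and 1.49, 1.18 and 0.921 in DOC, and also rose over both. With AgNPs and DOC as 1 group these 6 genes lost the call over the mean, at edgeR adjusted p of 0.135 (FGF21) to 0.369 (AKR1B10), and HTRA3 had a log2 fold change of 1.67 (adjusted p = 0.291).

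Immediate early genes, which respond to signalling within minutes, were higher than the mean for 14 of 19 tested and lower for 1. Of all genes, 15.9% were higher and 16.6% lower. Higher than each single treatment were 11 of the 19, against 6.72% of all genes. FOS had 15.1, 12.7 and 14.7 CPM in COM, against 8.04, 6.92 and 7.28 in AgNPs, 3.41, 3.14 and 4.50 in DOC and 0.975 to 1.06 in BLANK. The 4 groups did not overlap, and the log2 fold change was 0.93 over AgNPs and 1.94 over DOC. JUN rose above both, by 0.48 over AgNPs and 0.48 over DOC, and KLF4 by 0.35 over AgNPs and 0.62 over DOC. MYC, a driver of growth and ribosome synthesis, went the other way. It averaged 505 CPM in COM, 594 in AgNPs, 782 in DOC and 842 in BLANK, and was lower than each single treatment, by 0.43 on the log2 scale against the mean.

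Regulators of cell death moved in part. Of 21 pro-apoptotic genes tested, 7 were higher than the mean and all 7 also higher than each single treatment, 1 was lower and 13 did not pass. Over all genes 15.9% were higher than the mean and 6.72% higher than both. The 7 were BBC3, BMF, PMAIP1, BNIP3L, TNFRSF10B, BCL2L11 and BNIP3. PMAIP1, the BH3-only protein NOXA, had 58.5, 64.2 and 62.0 CPM in COM, against 42.7, 43.2 and 45.5 in AgNPs and 24.4, 22.7 and 25.5 in DOC. BBC3, the BH3-only protein PUMA, averaged 4.87 CPM in COM, 2.94 in AgNPs, 1.59 in DOC and 1.28 in BLANK. The effector genes BAX and BAK1 were among the 13 that did not pass. Of 8 survival genes, 4 were higher than the mean and 0 lower, with MCL1 and BCL2L1 higher than each single treatment at log2 fold changes of 0.29 and 0.28 over the mean. The 2 above both became 4 with RefSeq rows only.

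CDKN1A, the cyclin-dependent kinase inhibitor p21, had 70.5, 72.9 and 69.9 CPM in COM, against 39.8, 36.8 and 38.4 in AgNPs, 11.1, 14.5 and 14.0 in DOC and 8.52 to 9.62 in BLANK. The groups were fully separated, with a log2 fold change of 0.89 over AgNPs and 2.43 over DOC. Of 19 genes usually listed as p53 targets, 10 were higher than the mean and 2 lower, against 15.9% and 16.6% of all genes. Beyond both single treatments, 6 were higher and 1 lower, against 6.72% and 8.74% of all genes. The 10 higher than the mean became 6 with the 2 agents as 1 group. BAX, DDB2 and XPC, also on that list, did not pass.

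Autophagy and lysosome genes were higher than the mean for 18 of 28 tested and lower for 0, with 7 higher than each single treatment. Over all genes 15.9% were higher than the mean and 6.72% higher than both. The 18 became 9 with AgNPs and DOC as 1 group, and the 7 became 11 with RefSeq rows only. SQSTM1, the cargo receptor p62, had 527, 541 and 545 CPM in COM, against 427, 424 and 427 in AgNPs and 174, 169 and 171 in DOC. GABARAPL1, a member of the ATG8 family, led the list with a log2 fold change of 1.62 over the mean, and rose above both, by 0.70 over AgNPs and 2.55 over DOC. Genes controlled by NFkB were higher for 9 of 16 and lower for 1. The cytokine genes CXCL8 and IL11 rose above both at 1.36 and 1.25, whereas CXCL1 was lower than both at -0.28. Above both were 5 genes, and 3 without COM replicate 2, COM replicate 3 or AgNPs replicate 3. CXCL2 also rose above both, but only 21% of its counts fell on RefSeq rows and the call over the mean was lost when those rows alone were used.

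Hypoxia and glycolysis genes split. Of 26 tested 13 were higher and 8 lower than the mean, against 15.9% and 16.6% of all genes. Beyond each single treatment 9 were above and 3 below, against 6.72% and 8.74% of all genes. The 3 below were thus near the share over all genes. VEGFA, an angiogenic growth factor, and NDRG1, a stress-induced gene, were higher than both at log2 fold changes of 0.93 and 0.68. The glycolytic enzyme genes PFKL, PGAM1 and TPI1 were lower than both at -0.27, -0.20 and -0.14. The 8 lower genes became 3 with the 2 agents as 1 group, and 5 without COM replicate 1 or with RefSeq rows only.

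Chaperone genes also moved in both directions. Of 22 heat shock genes 12 were higher and 4 lower than the mean, 5 above and 3 below each single treatment. Of all genes, 15.9% were higher and 16.6% lower than the mean, and 6.72% were above and 8.74% below both. The 12 became 5 with the 2 agents as 1 group, and the 5 became 3 without COM replicate 2, COM replicate 3 or AgNPs replicate 3. The cochaperone genes HSPB8, DNAJB1 and BAG3 rose above both at 0.85, 0.68 and 0.26, and the mitochondrial chaperone genes HSPE1 and HSPD1 fell below both at -0.31 and -0.19. HSPA6 was higher than the mean by 1.15 yet lay between the groups, averaging 10.9 CPM in COM, 12.9 in AgNPs and 1.86 in DOC. Of 20 endoplasmic reticulum chaperone genes 5 were higher (3 with the 2 agents as 1 group) and 8 lower. Beyond both, 4 were higher and 5 lower. The 4 became 2 with DESeq2, with no filter, or without COM replicate 3, AgNPs replicate 1 or AgNPs replicate 2. DNAJB9 and HERPUD1, which act in degradation of misfolded proteins, rose above both at 0.99 and 0.94, whereas the chaperone-related genes SDF2L1 and MANF fell below both at -0.52 and -0.35.

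Among 12 tubulin genes 5 were higher and 1 lower than the mean, against 15.9% and 16.6% of all genes. The 5 became 3 with the 2 agents as 1 group. TUBA1A, TUBB3 and TUBA4A were above each single treatment. TUBA1A had 73.5, 81.4 and 79.1 CPM in COM, against 46.5, 44.4 and 48.3 in AgNPs and 50.6, 54.2 and 53.1 in DOC. It was the largest step in this list beyond both, at 0.75 over AgNPs and 0.57 over DOC. TUBB, the abundant beta-tubulin gene, lay between the agents. It had 2237, 2325 and 2281 CPM in COM, against 2020, 2041 and 2029 in AgNPs and 2416, 2574 and 2549 in DOC, and its log2 fold change over the mean was 0.01 (edgeR adjusted p = 0.661). Tubulin genes are close paralogs, and the division of reads among them is uncertain.

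**Figure D3:**
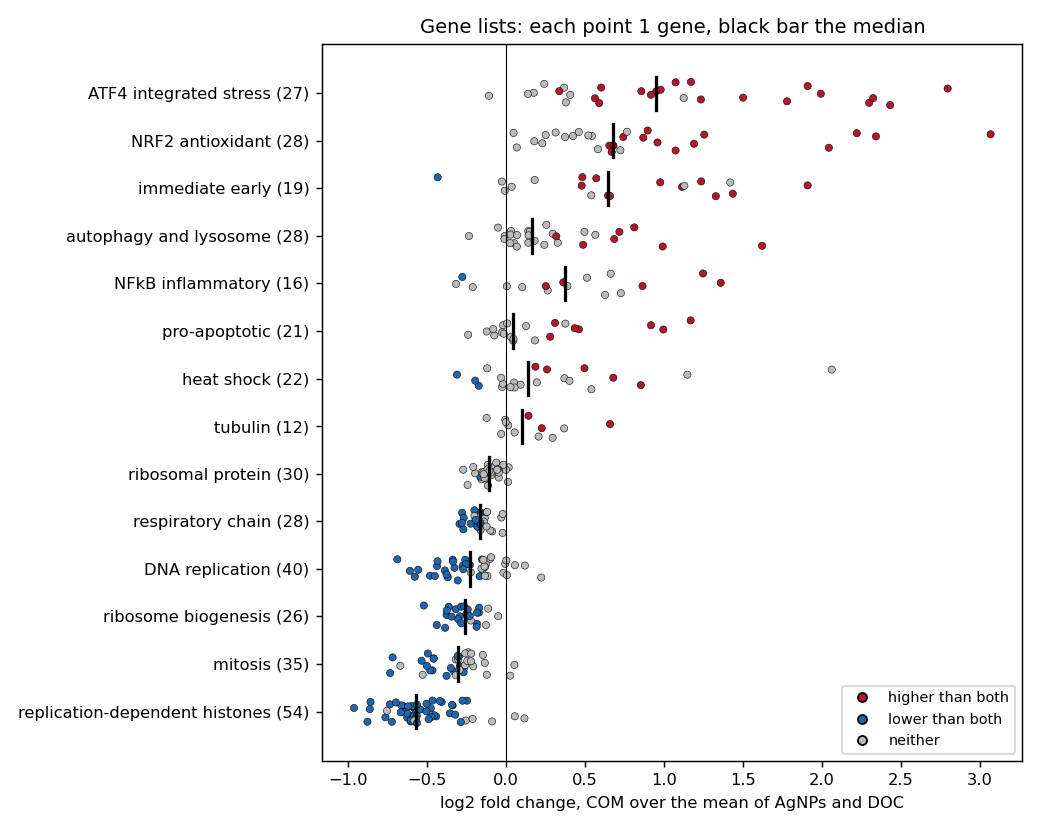
Log2 fold change of COM over the mean of AgNPs and DOC for the genes of 14 lists, each point 1 gene, with the number tested in parentheses and a black bar at the median. Red and blue points are genes higher or lower than both single treatments by test; the ATF4 list has its median at 0.95 and the replication-dependent histones at -0.57.

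On the lower side, replication-dependent histone genes fell together, with 49 of 54 lower than the mean of both, against 16.6% of all genes, 0 higher and 47 lower than each single treatment. Their median log2 fold change was -0.57, against 0.01 for all genes tested. This list was added after 3 histone genes appeared in the ranking, so its count is a description. In bulk RNA, fewer cells in S phase and less histone RNA per cell cannot be told apart. Histone genes are near-identical copies, and pairs such as H2AC18 and H2AC19 carried the same values, so members are not independent.

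H2AC4, an H2A gene, had 32.6, 32.0 and 36.8 CPM in COM, against 62.5, 58.9 and 57.1 in AgNPs, 67.1, 62.0 and 61.3 in DOC and 82.7 to 90.1 in BLANK. The COM libraries fell well below both, while AgNPs and DOC overlapped. The log2 fold change was -0.86 ± 0.05 (SE) against the mean (edgeR adjusted p = 1.19e-15), -0.82 against AgNPs and -0.91 against DOC. H3C13, an H3 gene, had 38.3, 36.7 and 35.5 CPM in COM, against 67.0, 63.8 and 68.2 in AgNPs and 76.0, 63.4 and 62.2 in DOC. H1-3, a linker histone gene, had 88.6, 85.6 and 86.4 CPM in COM, against 174, 171 and 168 in AgNPs and 205, 148 and 149 in DOC. DOC replicate 1 was the highest DOC library for all 3 genes. COM lay below every AgNPs and DOC library, which the ranking that named these 3 genes required.

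The promoters of H2AC4 and H3C13 are shown because CCAAT boxes recur in this family. Of the 54 histone genes 50 had a promoter in RefSeq (GRCh38.p14), and 42 (84%) held CCAAT on either strand, against 35.7% of all 27305 promoters. The octamer ATTTGCAT was in 21 (42%) of them, against 1.8% of all. The sequences give the 250 bases before the start, 5′ to 3′ on the gene's strand, with CCAAT or its reverse complement in capitals. H2AC4 lies at chr6:26033619-26033868 and H3C13 at chr1:149813694-149813943, both on the minus strand.
H2AC4: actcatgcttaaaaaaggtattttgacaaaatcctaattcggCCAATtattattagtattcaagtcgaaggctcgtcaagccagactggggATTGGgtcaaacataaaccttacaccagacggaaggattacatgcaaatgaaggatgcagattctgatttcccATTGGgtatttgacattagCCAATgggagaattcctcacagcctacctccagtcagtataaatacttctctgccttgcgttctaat
H3C13: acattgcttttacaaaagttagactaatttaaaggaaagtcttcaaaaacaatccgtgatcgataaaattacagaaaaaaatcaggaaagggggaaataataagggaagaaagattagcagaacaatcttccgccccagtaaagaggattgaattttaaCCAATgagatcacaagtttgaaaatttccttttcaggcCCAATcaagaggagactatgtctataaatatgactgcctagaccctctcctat
H2AC4 holds 4 matches and H3C13 holds 2.

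The 10 genes furthest below both single treatments, by the same ranking, were GLB1L2, ACTL10, H1-3, GPR85, H3C13, C1QTNF8, H2AC4, SLCO1C1, PIF1 and MAP2K6. PIF1, a DNA helicase gene, had 3.98, 3.54 and 3.38 CPM in COM, against 6.83, 6.39 and 5.36 in AgNPs and 10.1, 9.36 and 9.88 in DOC. MAP2K6, a kinase that activates p38, had 6.78, 7.98 and 7.85 CPM in COM, against 12.02, 14.3 and 12.03 in AgNPs and 15.6, 16.7 and 18.3 in DOC. For both genes the order was COM, AgNPs, DOC, BLANK from low to high. MAP2K6 reached 18.9 to 23.1 CPM in BLANK.

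The other 5 genes of that ranking were scarce. GLB1L2 had 0.361, 1.36 and 1.28 CPM in COM, against 2.48, 2.43 and 2.22 in AgNPs and 2.45, 2.52 and 2.35 in DOC. The actin-related gene ACTL10 had 0.994, 1.18 and 1.55 CPM in COM, against 2.78, 2.97 and 1.76 in AgNPs and 2.56, 2.31 and 2.40 in DOC. By selection, both stayed below AgNPs and DOC in every library. GPR85, an orphan receptor gene, lost its call against AgNPs without COM replicate 2 (edgeR adjusted p = 0.0588), and C1QTNF8 without AgNPs replicate 3 (adjusted p = 0.0551). SLCO1C1, an organic anion transporter gene, lost it without either of these libraries, with an adjusted p of up to 0.0947.

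**Figure D4:**
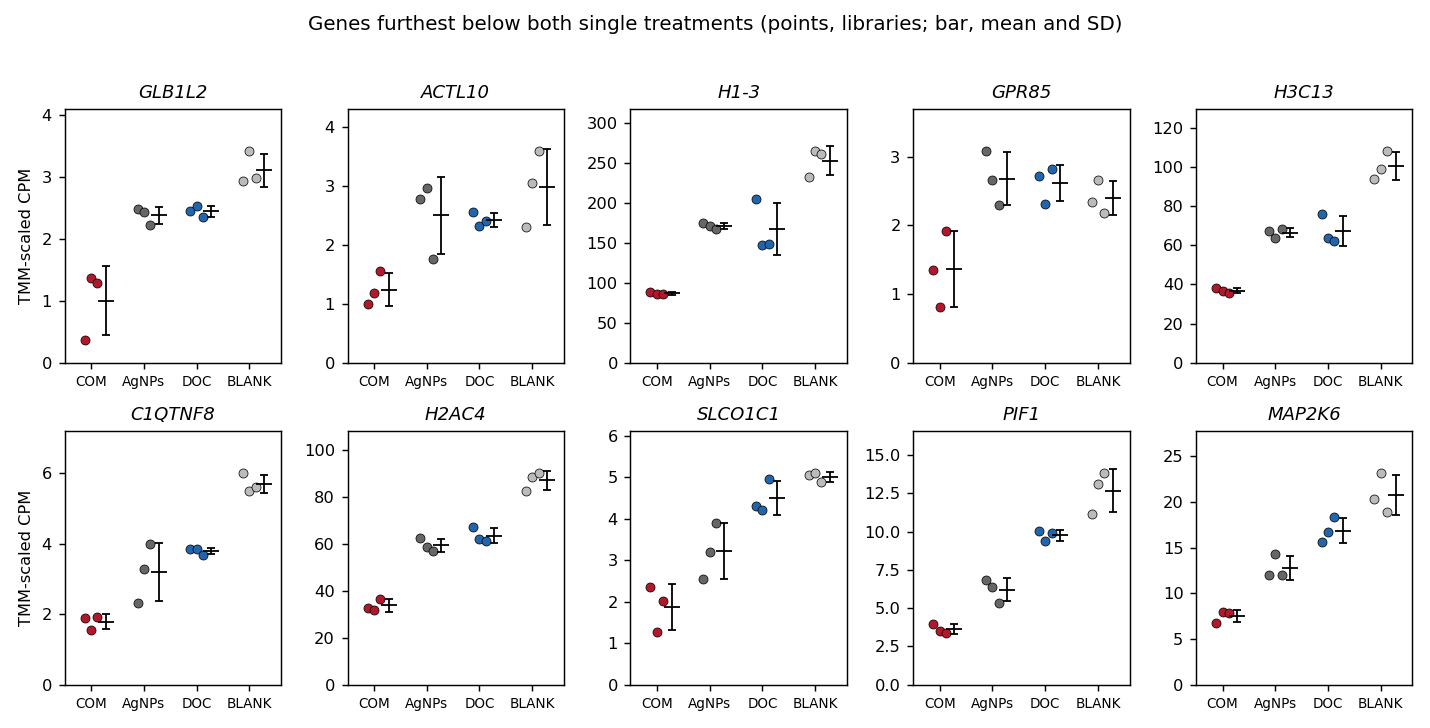
TMM-scaled CPM of the 10 genes furthest below both single treatments, in COM, AgNPs, DOC and BLANK. Points are libraries and bars the mean with SD (n = 3 each); the COM points of H2AC4 sit at 32.0 to 36.8 CPM, below the 57.1 to 67.1 CPM of the AgNPs and DOC points.

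DNA replication genes were lower than the mean for 29 of 40 tested and higher for 1, with a median log2 fold change of -0.23. Lower than each single treatment were 22. Over all genes 16.6% were lower than the mean and 8.74% lower than both. All 6 subunit genes of the MCM helicase on the list (MCM2 to MCM7) fell below both, with MCM7 at -0.69 and MCM4 at -0.33 at the ends of their range. MCM2 averaged 107 CPM in COM, 135 in AgNPs, 135 in DOC and 163 in BLANK. PCNA, the sliding clamp, fell below both at -0.23. CDC6, which loads the MCM helicase, was the 1 gene higher than the mean, at 0.22. It was higher than DOC by 0.34 and did not pass against AgNPs at 0.11 (edgeR adjusted p = 0.161).

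Mitosis genes were lower than the mean for 33 of 35 tested and higher for 0, with a median of -0.30, and 16 were lower than each single treatment. MKI67, a proliferation marker, had 253, 251 and 265 CPM in COM, against 339, 333 and 334 in AgNPs, 551, 506 and 534 in DOC and 589 to 619 in BLANK. TOP2A, the topoisomerase that untangles replicated DNA, had 163, 163 and 168 CPM in COM, against 193, 205 and 203 in AgNPs and 291, 282 and 281 in DOC. Both fell below each single treatment without overlap. The log2 fold change of MKI67 was -0.39 against AgNPs and -1.05 against DOC, and that of TOP2A was -0.28 against AgNPs and -0.79 against DOC. As 1 group, the single treatments left 14 of the 35 lower. Homologous recombination genes were lower for 9 of 18 and higher for 0, against 16.6% of all genes lower than the mean and 8.74% lower than both. Of these, 6 were below both, XRCC3 among them, and without COM replicate 3 the counts were 5 and 2. Below both were 3 without AgNPs replicate 3, with DESeq2 or with RefSeq rows only.

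Ribosome biogenesis genes were lower than the mean for 25 of 26 tested, and 22 of them were lower than each single treatment. RRS1, a ribosome assembly factor, had 34.1, 38.0 and 35.2 CPM in COM, against 54.1, 48.1 and 48.8 in AgNPs and 53.8, 50.8 and 52.5 in DOC. AgNPs and DOC overlapped for RRS1, and its log2 fold change was -0.49 against AgNPs and -0.55 against DOC. The nucleolar protein genes NCL, FBL and NPM1 fell below both at -0.38, -0.24 and -0.18. POLR1C did not pass. Of 30 genes of the ribosomal proteins themselves 11 were lower than the mean and 0 higher, against 16.6% of all genes lower. Against AgNPs 15 were lower and 1 higher, and against DOC 3 were lower and 0 higher. Lower than both were 2, against 8.74% of all genes. With no filter on low counts the 11 became 22 and the 2 became 11. The 11 became 7 without COM replicate 3 or with the 2 agents as 1 group.

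Respiratory chain genes were lower than the mean for 20 of 28 tested, against 16.6% of all genes, and higher for 0. Below each single treatment were 14, against 8.74% of all genes. The steps were small, from -0.29 for NDUFB10 to -0.13 for NDUFV2 among the 14. Sterol and fatty acid synthesis genes were lower for 14 of 28 and higher for 1, with 6 below both, led by FASN, the fatty acid synthase, at -0.54. The 14 became 6 with the 2 agents as 1 group. GPX1, a selenium-dependent peroxidase gene, had 70.0, 72.3 and 72.3 CPM in COM, against 77.4, 79.0 and 78.0 in AgNPs and 199, 195 and 193 in DOC. COM and AgNPs were close and both far below DOC, at -0.13 against AgNPs and -1.45 against DOC.

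Most other groups showed little or mixed change. Aminoacyl-tRNA synthetase genes were higher for 9 and lower for 5 of 20, against 15.9% and 16.6% of all genes. WARS1, CARS1, GARS1 and SARS1 were above both and VARS1, FARSA, QARS1 and KARS1 below both. Over all genes 6.72% were above and 8.74% below both. With the 2 agents as 1 group 0 of these 20 were higher. Proteasome genes were higher for 5 and lower for 2 of 27, and interferon response genes higher for 3 and lower for 3 of 25, shares near or below those over all genes. The 5 higher proteasome genes became 9 with RefSeq rows only, 3 with DESeq2, equal depth, or without AgNPs replicate 2 or DOC replicate 2, and 1 with no filter. They became 2 without COM replicate 2 or COM replicate 3, which left 0 lower, and 0 with the 2 agents as 1 group. Drug efflux transporter genes were higher for 4 and lower for 1 of 6, against 15.9% and 16.6% of all genes. The 4 became 1 with the 2 agents as 1 group. ABCC3 and ABCC2 rose over DOC, at log2 fold changes of 1.36 and 1.32. Over AgNPs they were at 0.09 and 0.21 and did not pass. ABCC1 was the 1 gene higher than both, at 0.16 over the mean. ABCB1, the multidrug transporter, had 0.813, 1.09 and 1.37 CPM in COM, against 0.601, 0.304 and 0.766 in AgNPs and 1.12, 0.977 and 0.461 in DOC, and did not pass (edgeR adjusted p = 0.162). Only 13.3% of its counts fell on RefSeq rows.

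Extracellular matrix and adhesion genes were higher for 10 and lower for 8 of 27, against 15.9% and 16.6% of all genes. The 10 became 6 and the 8 became 5 with the 2 agents as 1 group. Beyond both single treatments, 6 were higher and 5 lower, against 6.72% and 8.74% of all genes. The matrix gene THBS1 rose above both at 0.71, and MMP1 and COL4A2 fell below both at -0.37 and -0.36. Targets of SRF and YAP were higher for 7 and lower for 3 of 16, against 15.9% and 16.6% of all genes. Beyond both, 3 were higher and 1 lower, against 6.72% and 8.74% of all genes. CCN1 was above both at 0.51. The 7 became 3 with the 2 agents as 1 group and 4 with DESeq2, with no filter or without COM replicate 2. Of the 7 epithelial markers of PC3 cells tested, 2 were higher and 3 lower. Beyond both, 1 was higher and 3 lower. These 3 became 1 with DESeq2, with RefSeq rows only, or without COM replicate 1, COM replicate 2 or any 1 AgNPs library. HOXB13, a prostate homeobox gene, fell below both at -0.56.

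Values that bear on RNA quality and cell makeup moved with COM as follows, and their part in these differences was not tested. The nuclear-retained RNA NEAT1 had 6663, 6642 and 6458 CPM in COM, against 4560, 4584 and 4497 in AgNPs and 3071, 3289 and 3340 in DOC. MALAT1 was also above both, at 0.28, but 0.218% of its counts fell on RefSeq rows. RefSeq rows took 83.7% to 84.0% of linear counts in COM, 85.5% to 86.1% in AgNPs, 84.4% to 85.2% in DOC and 86.2% to 86.9% in BLANK. The median log2 fold change was -0.02 for protein-coding genes and 0.09 for genes with no symbol. Summed fibroblast markers gave 84.8 to 92.4 CPM in COM, 97.0 to 108 in AgNPs and 116 to 131 in DOC, with 1 of 7 lower (COL1A2) and 0 higher, or 1 higher without DOC replicate 1. Summed immune markers gave 49.8 to 57.2 CPM in COM, 38.9 to 45.4 in AgNPs and 49.3 to 50.4 in DOC, nearly all from CD68, which was higher than the mean (1 of 3 markers tested, or 2 without DOC replicate 1). Of 3 neuroendocrine markers tested 2 were higher, or 1 without COM replicate 3. Their sums were 71.7 to 78.0 CPM in COM, 65.8 to 68.0 in AgNPs and 54.9 to 56.7 in DOC. The 1 luminal prostate marker tested, ACP3, did not pass, and its list summed to 1.10 to 2.09 CPM in COM, 1.37 to 1.76 in AgNPs and 1.17 to 2.41 in DOC.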

How the data were processed

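RNA-seq of 12 PC3 libraries was deposited as 1 table of 221796 transcript rows. Per the submitters' processing notes, HISAT2, Bowtie2 2.2.5, RSEM and the GRCh38 build were used. The deposited values used were expected counts, which the authors had not normalised. Rows of circular transcripts (44096) were left out, and the 177700 linear rows were summed into 43613 genes by gene ID and rounded. The 12 other per-sample columns were not used. Symbols and coordinates came from RefSeq (27206 genes with a symbol).

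edgeR 4.0.16 (R 4.3.3; TMM scaling, filterByExpr, robust quasi-likelihood F test) was fitted to all 12 libraries with 1 coefficient per group. The contrast was COM minus 0.5 times AgNPs minus 0.5 times DOC on the log2 scale, two-sided, with Benjamini-Hochberg adjustment over 19986 genes. COM against AgNPs and COM against DOC came from the same fit. All fold changes are fitted log2 values, CPM are TMM-scaled unless stated, and values after ± are SE. The spread was small (common biological coefficient of variation 0.033), so small steps were called.

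Named genes were the 8 furthest each way from the mean and the 10 each way beyond both, with average log2 CPM of at least 1 and at least 50% of counts on RefSeq rows. Uncharacterised and antisense symbols were left out. Up to 3 genes per list with the smallest adjusted p and a set of stress, cycle and tubulin genes were added. Other genes were named as examples after their values were seen. The comparison, genes and 32 lists (586 genes tested) were chosen with earlier results of these data known. Alternatives used DESeq2 1.42.0, limma 3.58.1, other scaling, filters, rows, depth and left-out libraries. The script was tested on simulated data. Strand was not given in the sources used here, so overlapping genes cannot be separated.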

Additional observations from a re-analysis of the deposited data

How the results depend on the processing

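Over 10 alternatives and the leaving out of each of the 12 libraries, 0 of the named gene results reversed. A change of sign counted only where the main or the alternative value was called. Uncalled values near 0 did change sign, as for TUBB (-0.0146 to 0.0346) and ACP3 (-0.0617 to 0.3433). Genes at least 2-fold lower numbered 32, against 60 with no filter, 17 with a filter of 1 CPM in 3 libraries, and 27 to 49 when 1 library was left out (49 without COM replicate 1). Genes at least 2-fold higher numbered 315, against 208 with RefSeq rows only, 167 with AgNPs and DOC as 1 group, and 320 to 415 with 1 library left out. All genes higher numbered 3169, against 1899 with AgNPs and DOC as 1 group. That setting ended the call of 37 of the 114 named genes called. It adds the difference between AgNPs and DOC to the spread, and it also changes the estimate. For HTRA3 the log2 fold change was 1.67, against 3.65 in the main fit. The part of each in the lost calls was not tested. CHAC1 was the 1 of the 20 genes furthest beyond both that lost the call in that setting (edgeR adjusted p = 0.0675). Another alternative ended the call of 5 named genes (CD68, CXCL2, PSMB2, PSMB4 and SYT1). The other counts over all genes stayed within 1.5 times. Many counts within lists moved further, and only part of these moves are given beside them, so a list without a stated move need not be stable.

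Replicate numbers did not pair the libraries. Over 18 same-numbered pairs the deviations correlated at -0.111 to 0.049, and 4 of 12 libraries correlated best with their own number. With a replicate block, 3124 genes were higher and 3277 lower than the mean, and 1305 and 1700 were beyond both. COM was the shallowest group, so genes near 1 CPM, such as GLB1L2 at 0.361 CPM in COM replicate 1, rest on few counts.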
